A study of Mus musculus with 7 samples.

Results

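Genes that move ions across cell membranes were followed in Paneth cells sorted from mouse small intestine, where they sit in the crypts and release antimicrobial proteins. The set was taken by symbol: the anion exchangers Slc26a, the bicarbonate transporters Slc4a, the sodium/proton exchangers Slc9a, the cation-chloride cotransporters Slc12a, the sodium/calcium exchangers Slc8a and Slc24a, the Na,K-ATPase subunits Atp1a and Atp1b, the chloride channels and exchangers Clcn, the anoctamins Ano, the potassium channel genes Kcnn, Kcnq and Kcne, the epithelial sodium channel Scnn1, and Cftr. This gave 83 of 19938 genes named on the array. The symbol rule also took up the scaffold genes Slc9a3r1 and Slc9a3r2 and the kanadaptin gene Slc4a1ap, none of which encodes a transporter.

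The cells came from mice aged 4 months, per the labels. The mice were fed ad libitum (3 arrays) or were calorie restricted, receiving 60% of the calories of ad libitum (4 arrays), for 4 to 7 weeks. No strain, genotype, sex or pooling of mice was taken from the labels. Each array is labelled a biological replicate without saying how many mice it came from, so p-values measure the spread between these samples. Values are log2 expression per transcript cluster, the gene-level probe set of the array, given as mean ± SD (n = 4 for calorie restriction, n = 3 for ad libitum feeding). Array values are listed in the order of replicates 1 to 4 and 1 to 3. Every difference has the ad libitum mean subtracted from the calorie-restricted mean, in log2 units ± SE. It comes from limma fitted on all 13409 genes that passed a level filter, with Benjamini-Hochberg adjustment over all of them, and a gene was called at an adjusted p below 0.05.

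Epithelia secrete fluid by moving chloride and bicarbonate into the lumen, and absorb it by taking up sodium and chloride. For secretion, the sodium pump keeps cell sodium low, a cotransporter on the basolateral side (Slc12a2) loads chloride, potassium channels hold the membrane voltage, and CFTR and calcium-activated channels let anions out. For absorption, apical sodium/proton exchange (Slc9a2, Slc9a3) is coupled to chloride/bicarbonate exchange (Slc26a3, Slc26a6), and PDZ scaffolds such as Slc9a3r1 hold these proteins at the brush border. Secretion is a textbook property of crypts and electroneutral absorption of villi.

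In these cells 2 members were higher under calorie restriction, Slc9a3r1 and Ano6, and 0 were lower (limma, adjusted p below 0.05). Their promoters are shown with those of Slc26a3 and Ano7, the members with the largest positive and the largest negative difference. Each run is the 250 bases before an annotated start in RefSeq (GRCm38.p6), read 5′ to 3′ on the gene's strand. Capitals mark matches on either strand to the motifs searched. For transcription factors of the intestine these were the HNF4 core CAAAGTCCA and a CDX core in the forms TTTATGG or, as the alternative spelling, TTTATTG, with the glucocorticoid response element by its palindrome. For general promoter elements they were the TATA box as TATAAA, the box bound by NF-Y as CCAAT, the GC box bound by Sp1 as GGGCGG, and the E-box in its palindromic form as CACGTG. No match overlapped another in these windows.
Slc9a3r1, chr11:115163091-115163340, plus strand: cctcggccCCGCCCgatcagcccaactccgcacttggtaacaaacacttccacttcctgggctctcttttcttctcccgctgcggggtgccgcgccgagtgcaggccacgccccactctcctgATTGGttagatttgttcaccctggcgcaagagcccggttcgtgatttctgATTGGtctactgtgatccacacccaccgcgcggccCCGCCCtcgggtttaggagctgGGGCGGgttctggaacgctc
Ano6, chr15:95790593-95790842, plus strand: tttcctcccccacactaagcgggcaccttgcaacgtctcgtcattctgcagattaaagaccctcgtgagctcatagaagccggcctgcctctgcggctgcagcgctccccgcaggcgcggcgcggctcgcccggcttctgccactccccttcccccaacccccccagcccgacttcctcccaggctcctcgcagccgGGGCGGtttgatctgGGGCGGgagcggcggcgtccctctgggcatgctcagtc
Slc26a3, chr12:31437969-31438218, plus strand: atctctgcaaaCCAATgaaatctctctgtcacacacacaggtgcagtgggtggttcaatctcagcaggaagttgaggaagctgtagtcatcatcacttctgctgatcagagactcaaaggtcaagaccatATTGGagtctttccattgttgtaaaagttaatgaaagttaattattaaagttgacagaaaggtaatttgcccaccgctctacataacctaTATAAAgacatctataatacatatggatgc
Ano7, chr1:93373646-93373895, plus strand: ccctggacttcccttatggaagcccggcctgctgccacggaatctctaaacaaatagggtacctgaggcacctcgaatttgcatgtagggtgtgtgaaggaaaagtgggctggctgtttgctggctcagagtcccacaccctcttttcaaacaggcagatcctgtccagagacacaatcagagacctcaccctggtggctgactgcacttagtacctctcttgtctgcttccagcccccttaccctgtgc

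The windows of both called genes held GC boxes. The Slc9a3r1 window also held CCAAT boxes in the reverse orientation, and the Slc26a3 window held CCAAT boxes and a TATA box that begins 30 bases before the start. The Ano7 window held none of the motifs searched. Of the 83 members, 66 had at least 1 entry in the promoter table, 89 windows in all. GC boxes were in 42.7% of the member windows and in 32.7% of all 32851 promoter windows, CCAAT boxes in 34.8% and 33.9%, TATA boxes in 13.5% and 12.4%, and E-boxes in 14.6% and 6.02%. The HNF4 core was in 0 member windows (0.384% of all), the glucocorticoid element in 0 (0.387% of all), and the CDX core in its first form in 2.25% (2.43% of all) and in its second form in 0% (4.20% of all). Member windows were also richer in G and C, with a median of 58.8% against 52.4% for all windows, and the part of this in the shares was not tested. These are letter matches in a short window.

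Of the 83 members, 53 had a mean level over all arrays at or above the filter (6.79, the 40th percentile of all transcript clusters) and were tested, and 30 lay below it. The highest mean below the filter was that of Slc4a11 (6.69) and the lowest above it that of Clcn1 (6.80). The 30 included 7 of 8 sodium/calcium exchanger genes, 7 of 12 potassium channel genes, 5 of 11 Slc26a genes, and Scnn1b and Scnn1g, the beta and gamma subunits of the epithelial sodium channel. Without detection calls, no level near the filter was shown to exceed background. With the filter removed, 0 of the 30 were called, and their differences ran from -0.24 (Slc24a1) to 0.24 (Slc26a4).

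The labelled cell type was checked against its markers. Lyz1, the Paneth cell lysozyme, was at 14.31 ± 0.04 against 14.31 ± 0.02 (calorie restricted against ad libitum) and the defensin gene Defa24 at 14.00 ± 0.06 against 14.04 ± 0.03. Both lay near the highest value of each array (14.6 to 14.7), and whether a difference can show at such levels was not tested. Over the whole list of 15 Paneth markers, 12 differences were negative and 0 genes were called. Markers of enterocytes, the absorptive cells of the villus, were also measured on every array and were higher under calorie restriction for 9 of 28 genes (limma, adjusted p below 0.05), with all 28 differences positive and a median of 1.03. Among all genes tested, 0.656% were called higher, 54.2% had a positive difference and the median difference was 0.015. The mean of that list was 11.5 to 11.8 in the calorie-restricted arrays and 10.3 to 10.9 in the ad libitum arrays. Its brightest members were Anpep (0.34 ± 0.10) and Mgam (0.19 ± 0.11), and those with the smallest p were Apoc3 (1.54 ± 0.15) and Treh (1.48 ± 0.16). In RNA from a sorted bulk, fewer cells of a type and less RNA per cell cannot be told apart.

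Over all genes tested, 0.656% were called higher and 0.00746% were called lower, and the 2 called members are 3.77% of the 53 tested. The median difference of the 53 was 0.018, against 0.015 for all genes tested. Of the members, 31 were positive and 22 negative (58.5% positive, against 54.2% of all genes tested). At an unadjusted p below 0.05, 7 members were higher and 3 lower (13.2% and 5.66%), where 6.89% and 2.41% of all genes were. The groups did not overlap for 7 members on the higher side (13.2%, against 7.14% of all genes) and 3 on the lower side (5.66%, against 3.03%). For 47 of the 53 members the 95% interval of the difference lay within 1 log2 unit of 0.

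**Figure D1:**
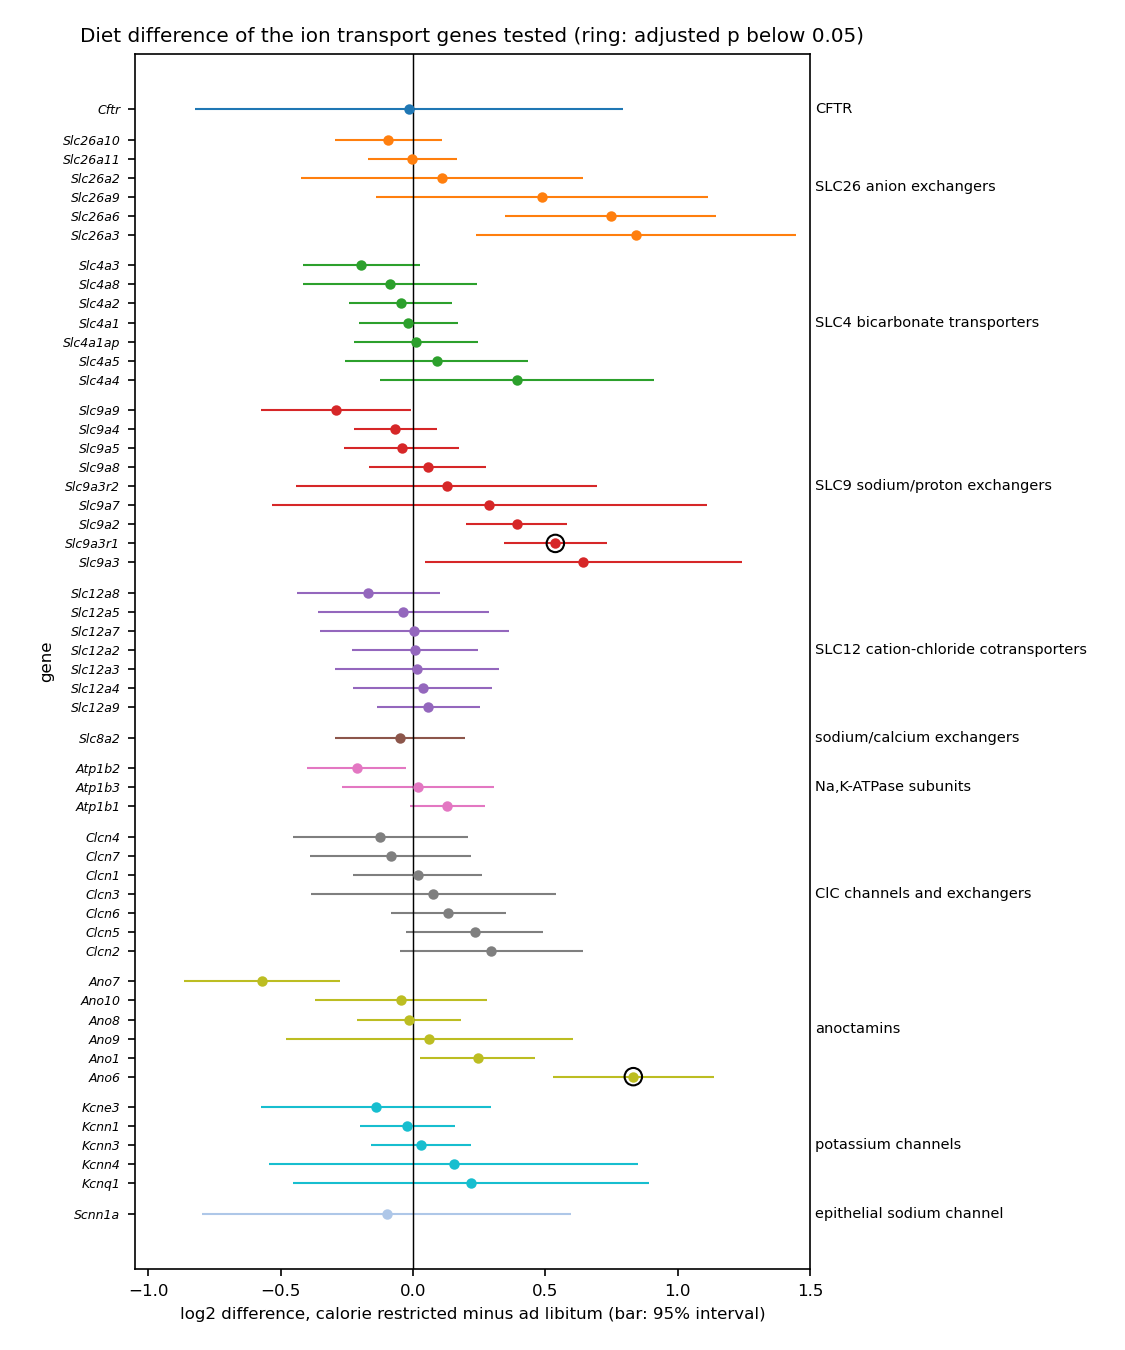
Difference between diets for the 53 members tested, grouped by family; points give the calorie-restricted mean less the ad libitum mean in log2 units, bars are 95% intervals of the limma fit, and rings mark the 2 genes with adjusted p below 0.05. Slc9a3r1 (0.54) and Ano6 (0.83) are ringed, Slc26a3 (0.84) has a wider interval, and Ano7 (-0.57) lies farthest to the left.

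Slc9a3r1 encodes NHERF1, a PDZ scaffold that links CFTR and the exchanger of Slc9a3 to ezrin under the brush border. Its levels were 11.54, 11.47, 11.50 and 11.33 in the calorie-restricted arrays and 11.04, 10.87 and 10.86 in the ad libitum arrays. The lowest calorie-restricted array was above the highest ad libitum array. The difference was 0.54 ± 0.08 (1.45-fold, limma, adjusted p = 0.0411, 95% interval 0.34 to 0.73), and the exact two-sided permutation test over 35 splits gave p = 0.0286, the smallest it allows. That permutation p reflects the same separation of the groups and is not further support for the call. The call did not hold when certain single arrays were left out. Leaving out calorie-restricted replicate 1, 2 or 3 gave an adjusted p of 0.144, 0.140 or 0.138 (limma), and leaving out ad libitum replicate 2 or 3 gave 0.187 or 0.0988. The difference itself was 0.51 to 0.60 over all 7 omissions. The call was also lost after median centring of the arrays, where the difference was 0.62 ± 0.13 (limma, adjusted p = 0.0904).

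Its relative Slc9a3r2, which encodes NHERF2, was at 9.87 ± 0.35 against 9.74 ± 0.46. The diets covered nearly the same range, 9.37 to 10.12 and 9.34 to 10.24.

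Ano6 encodes a calcium-activated protein that scrambles membrane phospholipids and conducts ions. It was at 11.84, 11.79, 11.49 and 11.86 in the calorie-restricted arrays and 10.75, 10.81 and 11.17 in the ad libitum arrays. The groups did not overlap, and ad libitum replicate 3 was the array nearest to the other diet. The difference was 0.83 ± 0.13 (1.78-fold, limma, adjusted p = 0.0415, 95% interval 0.53 to 1.14), with the exact two-sided permutation test at its smallest p of 0.0286. Here too the permutation p reflects the separation of the groups and is not further support. Omitting each calorie-restricted array in turn gave an adjusted p of 0.151, 0.138, 0.0591 and 0.0843 (limma). Omitting ad libitum replicate 1 or 2 gave 0.0708 or 0.196, and over all omissions the difference was 0.75 to 0.96. Quantile normalization also ended the call (adjusted p = 0.0587).

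The remaining anoctamins did not pass. Ano7, a family member known mostly from prostate, was at 11.47, 11.40, 11.22 and 11.55 in the calorie-restricted arrays and 12.24, 11.96 and 11.75 in the ad libitum arrays. Its groups did not overlap, in the direction opposite to Ano6. The difference was -0.57 ± 0.13 (limma, adjusted p = 0.132, 95% interval -0.87 to -0.28), and it was -0.69 to -0.44 over all alternatives. The exact two-sided permutation test was again at p = 0.0286, which reflects that separation of the groups and is not further support. Ano1, the classical calcium-activated chloride channel, was at 7.92, 7.79, 7.85 and 7.74 against 7.70, 7.43 and 7.62. These groups did not overlap either, at a level within 1 log2 unit of the filter (0.25 ± 0.09, adjusted p = 0.460). Ano8, Ano9 and Ano10 had differences of -0.015, 0.062 and -0.044. Ano2, Ano3 and Ano4 were below the filter.

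**Figure D2:**
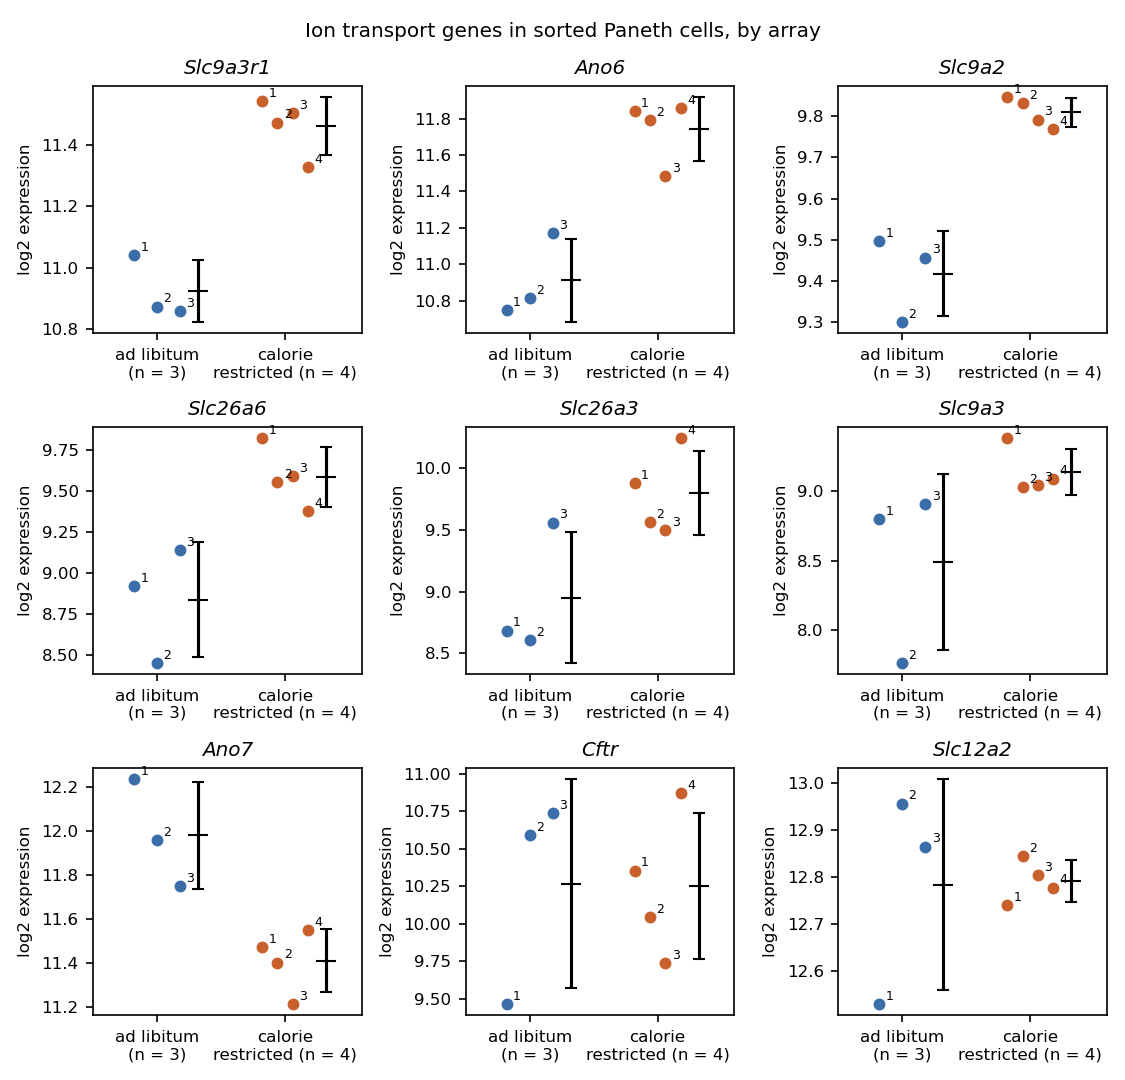
Log2 expression of 9 members by diet, on a separate vertical scale for each gene that does not start at 0; each point is 1 array with its replicate number, and the bar beside the points is the mean ± SD. The diets are separate for Slc9a3r1, Ano6, Slc9a2, Slc26a6, Slc9a3 and Ano7, and overlap for Slc26a3, Cftr and Slc12a2.

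The apical exchanger genes Slc9a2, Slc9a3, Slc26a6 and Slc26a3 did not pass over all genes. Slc9a2, which encodes the apical exchanger NHE2, was at 9.85, 9.83, 9.79 and 9.77 against 9.50, 9.30 and 9.46. The 4 calorie-restricted arrays lay close together and above all 3 ad libitum arrays (0.39 ± 0.08, limma, adjusted p = 0.108). Slc9a3, the absorptive exchanger NHE3, was at 9.38, 9.03, 9.04 and 9.09 against 8.80, 7.77 and 8.90. Its groups did not overlap, but ad libitum replicate 2 stood more than 1 log2 unit below its group, and the difference of 0.64 ± 0.26 (adjusted p = 0.494) was 0.28 without that array.

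Slc26a6, a chloride/bicarbonate and oxalate exchanger, was at 9.82, 9.56, 9.59 and 9.38 against 8.92, 8.45 and 9.14. The groups did not overlap, and the difference was 0.75 ± 0.17 (1.68-fold, limma, adjusted p = 0.145). Slc26a3, the chloride/bicarbonate exchanger whose human counterpart is lost in congenital chloride diarrhoea, was at 9.88, 9.56, 9.50 and 10.24 against 8.68, 8.61 and 9.56. Here ad libitum replicate 3 lay within the calorie-restricted range, and the difference was 0.84 ± 0.26 (adjusted p = 0.316). Without ad libitum replicate 3 it was 1.15.

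**Figure D3:**
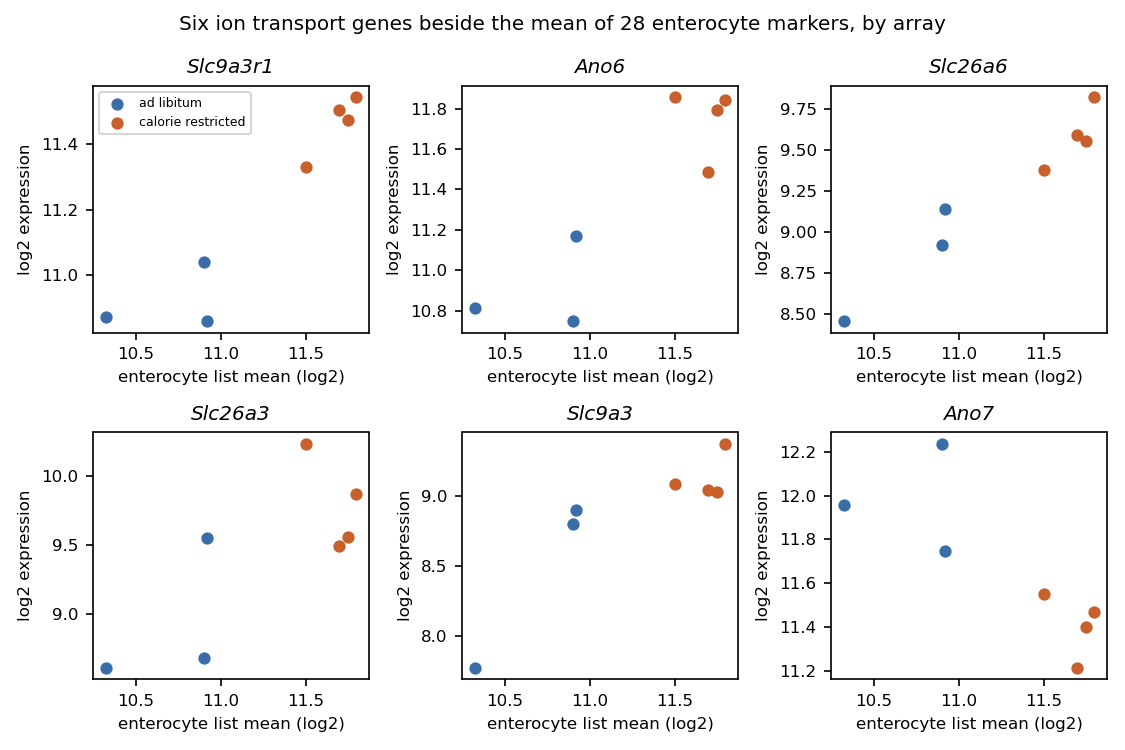
Log2 expression of 6 members (vertical) against the mean log2 level of 28 enterocyte markers (horizontal), 1 point per array, coloured by diet. Both axes separate the diets for Slc9a3r1, Ano6, Slc26a6, Slc9a3 and Ano7, and only the horizontal axis does for Slc26a3.

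The enterocyte list mean was higher in every calorie-restricted array than in any ad libitum array. So were Slc9a3r1, Ano6, Slc9a2, Slc26a6 and Slc9a3, while Ano7 was lower there and Slc26a3 overlapped. Ad libitum replicate 2, the lowest array for Slc9a3, Slc26a6, Slc26a3 and Slc9a2, had the lowest enterocyte mean of the 7 arrays (10.3, against 10.9 in ad libitum replicates 1 and 3). It was not the lowest for the called members. Slc9a3r1 was lowest in ad libitum replicate 3 (10.86, against 10.87 in replicate 2) and Ano6 in replicate 1 (10.75, against 10.81 in replicate 2). Within calorie restriction the means were 11.8, 11.7, 11.7 and 11.5 in replicates 1 to 4. In that group replicate 4 was the lowest array for Slc9a3r1, Slc9a2 and Slc26a6 and the highest for Slc26a3 and Ano6. The part of the enterocyte signal in these differences was not tested, and since the list means of the diets do not overlap, diet and enterocyte signal cannot be told apart.

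The other Slc26a genes had smaller differences or wider spreads. Slc26a2, a sulfate transporter, was at 11.55, 11.61, 11.52 and 11.08 against 11.92, 11.02 and 11.05, with overlapping groups (0.11 ± 0.23). Slc26a9, a chloride channel and transporter of airway and stomach, was at 7.35, 8.32, 8.11 and 7.19 against 7.45, 7.16 and 7.17. Calorie-restricted replicates 2 and 3 were high and the other 5 arrays were alike (0.49 ± 0.27, limma, adjusted p = 0.683). Slc26a10 and Slc26a11 were within 1 log2 unit of the filter and had differences of -0.094 and -0.0028.

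Among sodium/proton exchangers with other roles, no gene passed. Slc9a9, an endosomal exchanger, was at 7.24, 7.45, 7.07 and 7.08 against 7.63, 7.56 and 7.31 (-0.29 ± 0.12, limma, adjusted p = 0.525), with overlapping groups near the filter level. Slc9a8, a Golgi and brush border exchanger, differed by 0.055 ± 0.10 and Slc9a7, which sits in the trans-Golgi network, by 0.29 ± 0.36. Slc9a4 and Slc9a5 were close to the filter, at -0.066 (no overlap between the groups) and -0.042.

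No difference was detectable for Slc12a2 or Cftr. Slc12a2 encodes NKCC1, which loads chloride into the cell for secretion. It was at 12.74, 12.85, 12.80 and 12.78 against 12.53, 12.96 and 12.87. Ad libitum replicate 1 was the lowest array, and the diets overlapped. The difference was 0.0078 ± 0.10, with a 95% interval of -0.23 to 0.24 (limma, adjusted p = 0.990; exact two-sided permutation test, p = 0.971), and -0.12 without that array. Cftr, the cyclic AMP-regulated anion channel of the crypt, was at 10.35, 10.04, 9.74 and 10.87 against 9.46, 10.59 and 10.74. The groups overlapped, and the difference was -0.015 ± 0.35 (limma, adjusted p = 0.994; exact two-sided permutation test, p = 1). Its 95% interval, -0.82 to 0.79, is wide, so a sizeable change either way was not detectable with these arrays.

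The other cotransporters of the Slc12a family had differences between -0.17 (Slc12a8) and 0.058 (Slc12a9), the narrowest range among the families with 5 or more tested members. Slc12a8, which has been described as a nicotinamide mononucleotide transporter, was at 12.22 ± 0.17 against 12.39 ± 0.18 (limma, adjusted p = 0.765). The potassium/chloride cotransporter gene Slc12a7 (KCC4) was at 10.04 ± 0.19 against 10.04 ± 0.29, and Slc12a4 (KCC1) at 7.59 ± 0.18 against 7.55 ± 0.11. The renal gene Slc12a3 and the neuronal gene Slc12a5 lay within 0.5 log2 units of the filter, and the renal gene Slc12a1 lay below it.

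Bicarbonate transporters were also without calls. Slc4a4, the basolateral sodium/bicarbonate cotransporter NBCe1, was at 10.56, 10.19, 10.18 and 10.84 against 9.61, 10.11 and 10.43, with overlapping groups (0.39 ± 0.22, limma, adjusted p = 0.690). Leaving out ad libitum replicate 1 gave 0.18, leaving out calorie-restricted replicate 4 gave 0.26, and leaving out ad libitum replicate 3 gave 0.58. Slc4a2, the basolateral anion exchanger AE2, was at 9.88 ± 0.07 against 9.92 ± 0.09. Slc4a5 and Slc4a8 differed by 0.089 ± 0.15 and -0.085 ± 0.14, the erythrocyte exchanger Slc4a1 by -0.018 and the kanadaptin gene Slc4a1ap by 0.012. The anion exchanger Slc4a3 was at 7.28 ± 0.13 against 7.47 ± 0.08 (-0.20 ± 0.10). Its second transcript cluster, at 5.79 and 5.78, was below the filter and differed by 0.012.

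Of 5 Na,K-ATPase members, 3 were tested, all of them beta subunits, which help bring the pump to the membrane. Atp1a4, an alpha subunit of sperm, and Atp1b4 were below the filter. Atp1b1 was at 13.28, 13.26, 13.25 and 13.24 against 13.22, 13.06 and 13.11. The groups were separate by a narrow margin (0.13 ± 0.06). Atp1b3 was at 11.06 ± 0.22 against 11.04 ± 0.08, and its transcript clusters differed by 0.019 and 0.023. Atp1b2, a subunit best known from brain, was at 6.67, 6.78, 6.91 and 6.85 against 6.94, 7.02 and 7.09, at the level of the filter and without overlap (-0.21 ± 0.08, limma, adjusted p = 0.453).

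Chloride channels and exchangers of the Clcn family had 5 positive and 2 negative differences and no call. The cell surface channel gene Clcn2 was at 9.67, 9.48, 9.45 and 9.91 against 9.07, 9.41 and 9.52 (0.30 ± 0.15, limma, adjusted p = 0.633). The endosomal exchanger gene Clcn5 was at 9.32, 9.51, 9.48 and 9.38 against 9.38, 9.20 and 8.98 (0.23 ± 0.11, adjusted p = 0.610). Both had overlapping groups, and the Clcn5 difference was 0.13 without ad libitum replicate 3 and 0.33 without ad libitum replicate 1. Clcn3 was at 10.85, 10.88, 11.01 and 10.22 against 10.94, 10.61 and 10.43 (0.077 ± 0.20), with calorie-restricted replicate 4 the lowest of the 7 arrays. The lysosomal exchanger gene Clcn7 (-0.084 ± 0.13), Clcn4 (-0.12 ± 0.14) and Clcn6 (0.13 ± 0.09) made up the rest with Clcn1, a muscle channel at the filter level.

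The potassium channels that recycle potassium during secretion varied widely between arrays of both diets. Kcne3, the subunit that holds the Kcnq1 channel open in intestinal epithelium, was at 11.72, 11.41, 11.32 and 11.84 against 11.30, 11.99 and 11.84 (-0.14 ± 0.19). Omission of single arrays moved that difference from -0.34 (ad libitum replicate 1) to -0.00035 (ad libitum replicate 2). Kcnq1 itself was at 11.55, 11.23, 11.07 and 11.85 against 10.48, 11.59 and 11.54 (0.22 ± 0.29). The calcium-activated channel gene Kcnn4 was at 10.56, 10.36, 9.84 and 11.03 against 9.71, 10.59 and 10.57 (0.15 ± 0.30). All 3 genes shared their low arrays, ad libitum replicate 1 and calorie-restricted replicates 2 and 3. Kcnn1 and Kcnn3 were at 7.17 ± 0.06 against 7.19 ± 0.09 and at 7.67 ± 0.09 against 7.64 ± 0.04.

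Scnn1a, the alpha subunit of the epithelial sodium channel, was the subunit that passed the filter. It was at 10.63, 11.08, 10.74 and 10.13 against 11.37, 10.74 and 10.13, with overlapping groups (-0.10 ± 0.30, limma, adjusted p = 0.951). Its highest array was ad libitum replicate 1, the lowest for those potassium channels. Slc8a2, the single sodium/calcium exchanger gene above the filter, was at 6.86, 6.62, 6.89 and 6.97 against 7.00, 6.93 and 6.72 (-0.05 ± 0.11).

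**Figure D4:**
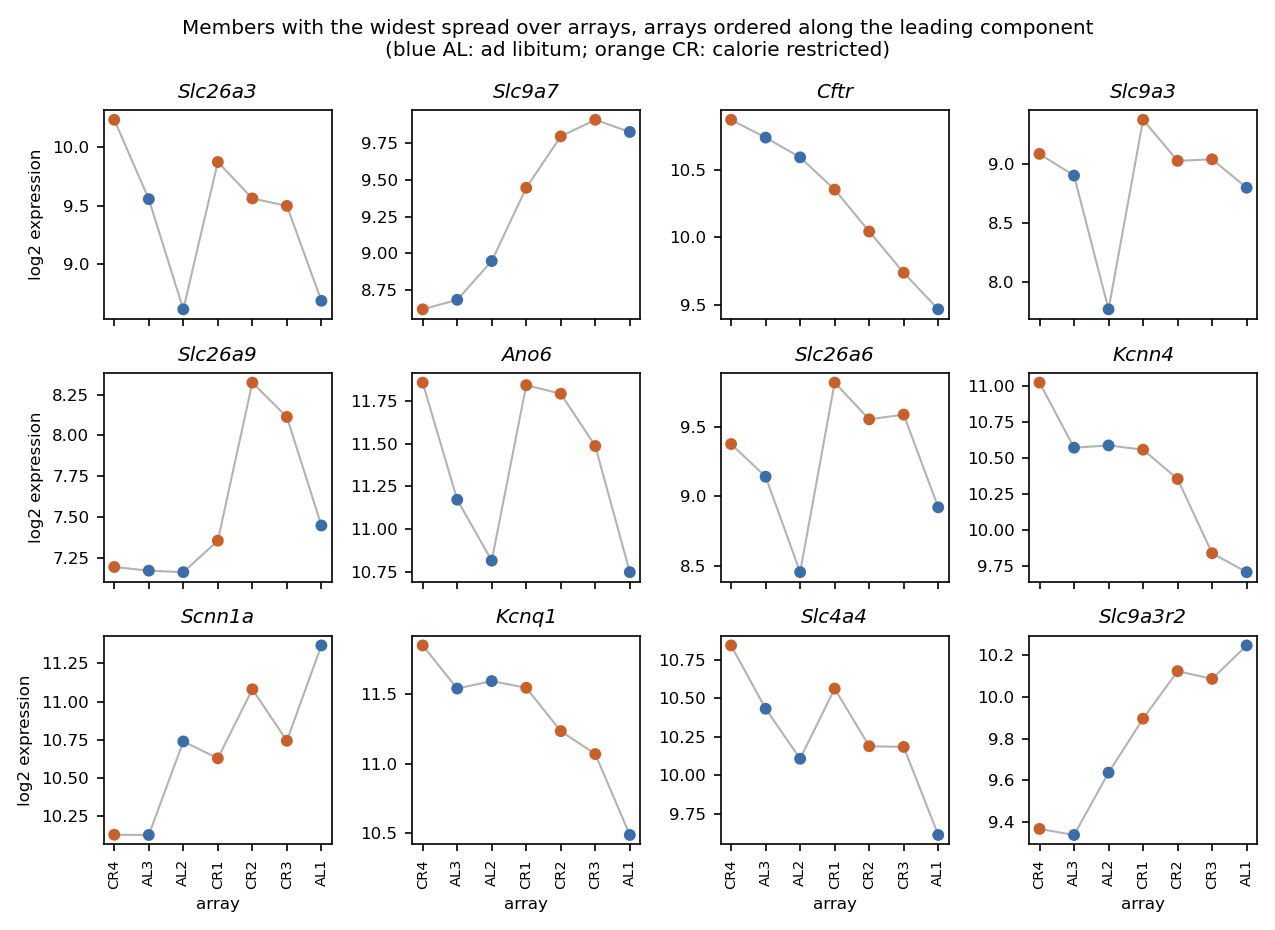
Log2 expression of the 12 tested members with the widest spread over the 7 arrays, on separate vertical scales, with arrays in the order of the leading principal component of all tested genes; AL is ad libitum, CR calorie restricted, and the number is the replicate. Cftr is lower at each step from CR4 to AL1 across both diets, Kcnq1 and Kcnn4 are similar, and Slc9a7, Scnn1a and Slc9a3r2 run the other way.

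Part of the members' spread lay across the diets rather than between them. The leading principal component of all genes tested held 48.7% of the variance and did not order the arrays by diet. It ran from calorie-restricted replicate 4 through ad libitum replicates 3 and 2 and calorie-restricted replicates 1, 2 and 3 to ad libitum replicate 1. The second component, with 27.6% of the variance, separated the diets, at 9.33 to 13.6 in the calorie-restricted arrays and -19.2 to -6.98 in the ad libitum arrays. The median SD over the 7 arrays was 0.196 for the 53 members and 0.154 for all genes tested. Among the 12 members with the widest spread, a list made after the values were seen, Cftr was lower at each step of that order, from 10.87 to 9.46. Slc9a7 was at 8.62 in calorie-restricted replicate 4, at 9.91 in replicate 3 and at 9.82 in ad libitum replicate 1.

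The members showed this pattern about as often as all genes. In 12 of the 53 (22.6%) the highest calorie-restricted array was replicate 4 and the lowest ad libitum array was replicate 1, and 21.8% of all genes tested had this pattern. The 12 were Cftr, Kcnq1, Kcnn4, Kcne3, Slc4a4, Slc12a7, Clcn2, Ano6, Ano9, Slc9a5, Slc9a8 and Slc26a10. The reverse held for 15 members (28.3%, against 28% of all genes), among them Scnn1a, Slc26a2, Slc9a7, Slc9a3r1, Slc9a3r2, Clcn3, Clcn4, Atp1b1, Atp1b3 and Slc12a8. Markers of crypt stem and dividing cells, a list that includes Slc12a2, had their lowest mean in ad libitum replicate 1 (10.6) and calorie-restricted replicate 3 (10.9) and lay between 11.1 and 11.4 in the other arrays. Of its 10 genes 0 were called (limma; 0 at an unadjusted p below 0.05), with Olfm4 (-0.037 ± 0.11) the brightest beside Slc12a2, and Pcna (0.22 ± 0.13) and Ascl2 (-0.27 ± 0.24) with the smallest p. The part of these cells in the spread of the members was not tested.

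Other marker lists had no calls. At an unadjusted p below 0.05 (limma), 6.89% of all genes tested were higher and 2.41% lower. Differences of either size were positive for 54.2% of all genes tested. Goblet cell markers had 0 of 10 called (limma; 1 higher and 2 lower at an unadjusted p below 0.05) and 9 negative differences, with list means of 12.6 to 12.9 under calorie restriction and 12.9 to 13.1 with ad libitum feeding. Muc2 (-0.20 ± 0.06) and Retnlb (-1.32 ± 0.47) had the smallest p, and Spink4 (-0.06 ± 0.06) and Muc2 were the brightest. Of 15 Paneth markers 12 had negative differences and 0 were called (limma; 0 higher and 1 lower unadjusted, Mptx1 at -1.42 ± 0.44, ahead of Pnliprp2 at -0.11 ± 0.07), with means of 12.4 to 12.8 under calorie restriction and 12.7 to 12.9 with ad libitum feeding. Enteroendocrine markers had 11 of 11 differences positive (median 0.26) and 0 called (limma; 2 higher unadjusted, Gcg at 0.28 ± 0.10 and Cck at 0.30 ± 0.12, with Chga at 0.26 ± 0.29 and Gip at 0.13 ± 0.47 the brightest), with means of 10.4 to 11.3 under calorie restriction and 10.4 to 11.0 with ad libitum feeding. Tuft cell markers had 7 of 8 differences negative and 0 called (0 unadjusted), with Dclk1 (-0.26 ± 0.33), Avil (-0.22 ± 0.31) and the bright Rgs13 (-0.047 ± 0.35), and means of 8.39 to 9.57 under calorie restriction and 8.83 to 9.46 with ad libitum feeding. Blood and stromal markers had 6 of 10 differences negative and 0 called (1 lower unadjusted, Cd8a at -0.22 ± 0.09, then Col3a1 at -0.16 ± 0.10, with Lyz2 at 0.033 ± 0.08 and Vim at 0.10 ± 0.18 the brightest), with means of 8.02 to 8.22 under calorie restriction and 8.16 to 8.25 with ad libitum feeding. The part of these lists in the members' values was not tested.

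Hormone receptors and kinases that control these transporters were followed as a list of regulators. Of 30 tested, 1 was higher and 0 were lower (limma, adjusted p below 0.05), with a median difference of 0.035. Among all genes tested, 0.656% were called higher, with a median of 0.015. The higher gene was Sgk1, the kinase through which steroid hormones raise epithelial sodium channel and NHE3 activity, at 8.83, 9.14, 9.24 and 8.82 against 7.16, 7.14 and 8.08 (1.55 ± 0.24, 2.93-fold, adjusted p = 0.0400). Hsd11b2, which inactivates glucocorticoid in cells that respond to aldosterone, was at 10.22, 10.19, 10.37 and 10.49 against 9.09, 9.18 and 9.80 (0.96 ± 0.17, adjusted p = 0.0605). The related kinase gene Sgk2 (0.72 ± 0.16, adjusted p = 0.135) and Klhl3 (-0.22 ± 0.08, adjusted p = 0.384), an adaptor that targets WNK kinases for degradation, did not pass. Omitting any calorie-restricted array or ad libitum replicate 2 left 0 called, and omitting ad libitum replicate 3 gave 2. Guca2a and Guca2b, the guanylin peptides that trigger CFTR-dependent secretion, differed by -0.028 ± 0.06 and -0.055 ± 0.07.

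Scaffolds and accessory subunits had 1 of 29 genes higher (against 0.656% of all genes tested) and 0 lower, with a median of 0.059. The higher gene was Clca4a, of the calcium-activated chloride channel regulator family, at 10.20, 10.27, 10.41 and 10.26 against 9.36, 9.30 and 9.54 (0.89 ± 0.09, 1.85-fold, limma, adjusted p = 0.0106). Pdzk1, another PDZ scaffold of the brush border, was at 8.24, 7.99, 8.13 and 7.51 against 7.24, 6.71 and 7.01 (0.98 ± 0.19, adjusted p = 0.0845). The protease inhibitor gene Spint1 (0.28 ± 0.06, adjusted p = 0.139) and Chp2, a cofactor of sodium/proton exchangers (0.75 ± 0.19, adjusted p = 0.190), did not pass. The count of higher genes was 0 when calorie-restricted replicate 1 or 3 was omitted and 2 when replicate 4 was, where 1 gene was lower.

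Carbonic anhydrases, water channels and other pumps and channels had 0 of 28 called (limma), with a median difference of 0.16, against 0.015 for all genes tested. At an unadjusted p below 0.05 (limma), 8 of the 28 were higher and 1 lower, where 6.89% and 2.41% of all genes were. The smallest p belonged to the Golgi calcium and manganese pump gene Atp2c2 (0.38 ± 0.09, adjusted p = 0.160), the potassium channel gene Kcnk5 (0.65 ± 0.16, adjusted p = 0.184) and the water and glycerol channel genes Aqp7 (1.11 ± 0.32) and Aqp3 (0.31 ± 0.09). Aqp7 was uneven within ad libitum feeding, at 9.28, 7.90 and 7.97 in replicates 1 to 3. Omitting ad libitum replicate 1 or 3 gave 1 higher gene. The enterocyte list mean was higher in all calorie-restricted arrays beside these 3 lists as well, and its part in them was not tested.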

How the data were processed

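Total RNA of sorted Paneth cells was measured on 7 Affymetrix arrays, from 10 ug RNA each per the labels. The authors deposited log2 signals. The submitters' processing notes name Affymetrix Expression Console as the authors' tool. For its algorithm and normalization, the answer is not given in the sources used here. Their log2 scale was inferred from the range (2.97 to 14.7). Array medians ran from 7.24 to 7.44, correlations between arrays from 0.949 to 0.993, and 0 pairs were identical. The number of arrays limits the precision.

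Of 35556 transcript clusters, 21789 had 1 gene symbol in the platform annotation, 1621 several and 12146 none. The brightest cluster per gene was used (19938 genes). Of the clusters, 21698 matched RefSeq (GRCm38.p6), which changed 0 symbols. The filter dropped genes whose mean lay under the 40th percentile. limma (version 3.58.1, R version 4.3.3) was run with lmFit and eBayes with trend. The fit was also run on simulated data with independent noise for each gene. That run cannot show how the fit handles the spread that genes share in these arrays.

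Members, lists and motifs were chosen with earlier results of these data known. Array values are given for Cftr, Slc12a2, Ano7, called members, the 12 smallest p and the brightest member of each family. Slc26a9, Clcn2, Kcnq1 and Kcnn4 were added after their values were seen. Named from lists were called genes, the 4 smallest p of the regulator lists, and the 2 brightest and 2 smallest p of cell type lists. Guca2a and Guca2b were added after their values were seen. Alternatives were quantile normalization, median centring, no filter, a 60th percentile filter, the mean of all clusters, eBayes without trend or robust, array weights, a replicate block, and omission of single arrays.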

Additional observations from a re-analysis of the deposited data

Results flagged for a closer look

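In 4 of 92 genes examined, 3 of them among the 53 tested members, 1 calorie-restricted array stood apart from the other 3 by a gap above the 95% critical value of Dixon's test. Chance gives about 1 such value in 20 groups, and the ad libitum groups of 3 were not tested. Slc9a3 was at 9.38 in replicate 1 and at 9.03 to 9.09 in the others, a gap of 0.831 of the group's range. Slc9a4 was at 7.08 in replicate 2 and at 7.17 to 7.19 in the others (0.843 of the range). Atp1b3 was at 10.73 in replicate 4 and at 11.15 to 11.21 in the others (0.865 of the range). The goblet cell marker Spink4 was at 13.98 in replicate 4 and at 14.10 to 14.12 in the others (0.844 of the range).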

How the results depend on the processing

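The 2 calls did not hold in all settings, while the differences of Slc9a3r1 (0.50 to 0.62) and Ano6 (0.75 to 0.96) kept their sign in the 16 alternatives. The number of members called higher was 1 with quantile normalization, 1 with median centring, 8 with array weights (and 1 lower, Ano7) and 0 with the replicate block, and 0 to 1 (0 to 0 lower) without 1 array. The 8 with array weights were Slc9a3r1, Ano6, Slc9a2, Slc9a3, Slc26a6, Slc26a3, Ano1 and Atp1b1. All genes called higher and lower numbered 53 and 0 with quantile normalization, 110 and 0 with median centring, 90 and 2 with no filter, 69 and 0 with the 60th percentile filter, 963 and 392 with array weights, and 12 to 97 and 0 to 9 without 1 array. The hormone receptor and kinase list had 2 higher with median centring, 4 with array weights and 0 to 2 without 1 array. The scaffold list had 6 higher and 3 lower with array weights, and 0 to 2 and 0 to 1 without 1 array. The carbonic anhydrase list had 7 higher and 1 lower with array weights, and 0 to 1 higher without 1 array. The median member difference was 0.063 with quantile normalization, 0.10 with median centring, 0.077 with the 60th percentile filter, 0.047 with array weights and 0.011 to 0.034 without 1 array. For all genes tested in the same settings, the median was 0.031, 0.10, 0.043, 0.021 and -0.0012 to 0.023. With median centring the member median was thus that of all genes.

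The replicate numbers did not pair the arrays (correlations of deviations -0.13, -0.27 and -0.55). With the number as a replicate block, where calorie-restricted replicate 4 had no partner, 0 genes were called higher and 0 lower (Slc9a3r1 adjusted p = 0.175, Ano6 adjusted p = 0.332, limma), also in each list.

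Sign changes were seen in 6 of the 20 members named by rule. Slc12a2 was at -0.017 with quantile normalization and -0.10 with array weights, Slc8a2 at 0.045 with quantile normalization and 0.037 with median centring, Cftr at 0.072 with median centring, and Scnn1a at 0.19 with array weights and 0.073 with the block. Without 1 array, Cftr ran from -0.42 to 0.22, Slc12a2 from -0.12 to 0.094, Slc8a2 from -0.13 to 0.021, Clcn3 from -0.039 to 0.25, Scnn1a from -0.41 to 0.21 and Slc26a2 from -0.045 to 0.40. Median centring moves the differences of all genes by the same amount. The cause of the other sign changes was not tested. Ano1, Atp1b2, Slc8a2 and Slc9a9 were left out by the 60th percentile filter. Without detection calls, the 9 members within 0.5 of the filter level have no stated signal over background.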
